A study of Mus musculus with 947 samples.

Results

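The Rtl1 antisense miRNAs of the Dlk1-Dio3 locus were followed across the tissues of the aging mouse and across young and aged mice joined by parabiosis. Members were taken by name as the mature strands mmu-miR-431-5p, mmu-miR-433-3p, mmu-miR-127-5p, mmu-miR-127-3p, mmu-miR-434-5p, mmu-miR-434-3p, mmu-miR-136-5p and mmu-miR-136-3p, and are written without the species prefix from here on. This rule used no measured value, although earlier results of these data were known when it was set. They are 8 of the 1076 miRNAs listed in the aging data and 8 of the 795 listed in the parabiosis data. A further 94 miRNAs of the aging data have hairpins between Dlk1 and Dio3.

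The Dlk1-Dio3 locus is imprinted, so that its protein-coding genes are read from the paternal chromosome and its noncoding RNAs, including a long run of miRNAs, from the maternal one. Rtl1 is a protein-coding gene derived from a retrotransposon, and the maternal transcript on the opposite strand carries hairpins whose miRNAs match the paternal Rtl1 mRNA over their full length. Rtl1 is known for its part in the placenta and in fetal muscle, and the miRNAs of the locus are best known from embryo and brain. A miRNA finds its other target mRNAs mainly through its seed, the stretch of bases 2 to 8, so the 8 mature sequences are given here with the seed in capitals.

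miR-431-5p: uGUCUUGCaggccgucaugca
miR-433-3p: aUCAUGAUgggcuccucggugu
miR-127-5p: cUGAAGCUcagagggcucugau
miR-127-3p: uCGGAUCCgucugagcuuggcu
miR-434-5p: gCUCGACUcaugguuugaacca
miR-434-3p: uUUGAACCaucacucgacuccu
miR-136-5p: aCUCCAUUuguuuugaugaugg
miR-136-3p: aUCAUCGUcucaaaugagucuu

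These sequences are RefSeq's, on mouse build GRCm38.p6, and each is written 5′ to 3′. The order is that of their hairpins along the plus strand of chromosome 12. Mir431 lies at chr12:109590447-109590537, Mir433 at chr12:109591715-109591838, Mir127 at chr12:109592846-109592915, Mir434 at chr12:109594506-109594599 and Mir136 at chr12:109595327-109595388. All 5 hairpins fall within the coding sequence of Rtl1, which is annotated on the minus strand from 109589193 to 109600330. No pair of members shares a seed, and 0 other mature miRNAs of the RefSeq table carry one of these seeds, so the members are grouped below by hairpin and not by seed.

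Small RNA was sequenced from 16 tissues of C57BL/6JN mice, and 768 libraries were used. Males (552 libraries) were sampled at 10 ages, 1 month and then every 3 months from 3 to 27 months, and virgin females (216 libraries) up to 21 months, with 1 to 6 libraries per tissue and age (median 5). The parabiosis data hold 176 libraries of 6 tissues from 30 male mice sutured together for 5 weeks. Isochronic young mice (IY, 4 pairs, 4 mice of 3 months and 4 of 4.5 months) and isochronic aged mice (IA, 4 pairs, 19 months) were joined to a mouse of their own age. Heterochronic young mice (HY, 7 mice, 4 months) and heterochronic aged mice (HA, 7 mice, 19 months) were joined to each other. All HY mice carry a transgene that the IY mice lack, so strain and heterochronic joining cannot be told apart in HY against IY, nor strain and age in HA against HY. The IY and aged mice were C57BL/6J or C57BL/6JN, and the sources used here differ on which mice were of which, so these are not assigned. The 2 partners of an isochronic pair fall in the same group, so they are not independent animals in the tests below.

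Values are reads per 1000000 mapped reads (rpmm) as deposited. The number of reads behind each library, recovered from the smallest steps of the values, was 20.1 M (1 M being 1000000 reads) in the median for the aging data (2.29 to 167 M) and 20.1 M for the parabiosis data (9.20 to 47.6 M). A count of 3 reads, the level below which a value was taken as not detectable, stood at a median of 0.149 rpmm and at most 1.31 rpmm in the aging libraries. By the tissue markers, 9 aging and 4 parabiosis libraries were closer to another tissue than to their labelled one, among them all 3 MAT libraries of 27 months, and 93 of the 768 aging libraries held fewer than 10 M reads. In brain, the 12 libraries with title numbers 25 to 36 stood apart from the other 39, with miR-127-3p between 435 and 1405 rpmm against 3875 to 9829 rpmm. In these bulk samples, fewer cells of a type and less RNA per cell cannot be told apart.

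The members were highest in the brain and lowest in bone marrow, kidney, liver and spleen. miR-127-3p, the most abundant member in most tissues, had a median of 5772 rpmm in brain (n = 51), 349 rpmm in mesenteric fat (MAT, n = 47), 224 rpmm in gonadal fat (GAT, n = 37), 155 rpmm in dorsal skin (n = 47), 95.5 rpmm in subcutaneous fat (SCAT, n = 44) and 94.9 rpmm in limb muscle (the tibialis anterior, n = 47). It continued down through pancreas (92.5 rpmm), small intestine (79.3), brown fat (BAT, 70.8), heart (65.1), lung (60.6) and bone (47.4) to spleen (15.5), kidney (14.1), liver (10.96) and marrow (6.41 rpmm). The order therefore runs from the nervous system through fat, skin and muscle to the blood-forming and filtering organs. miR-136-5p, from the last hairpin of the series, followed closely, with medians of 5010 rpmm in brain, 284 in MAT, 116 in limb muscle, 51.6 in heart and 4.35 rpmm in marrow.

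The other 6 members were much less abundant. In brain, miR-136-3p had a median of 463 rpmm, miR-434-3p of 322, miR-434-5p of 91.9, miR-127-5p of 77.04, miR-433-3p of 48.4 and miR-431-5p of 6.77 rpmm. In limb muscle the same members stood at 8.01, 5.53, 4.13, 1.41, 0.351 and 0.494 rpmm, so the last 2 were within reach of the detection limit there. miR-127-3p and miR-136-5p together thus carried most of the signal of the group in every tissue. All 8 members made up a median of 2.04% of the miRNA signal in brain (1.29 to 4.28%), 0.176% in MAT, 0.0387% in limb muscle and 0.00572% in marrow.

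Every member was higher in brain than in MAT by more than the spread between libraries. The difference of the mean log2 levels was 3.44 for miR-127-3p, 3.97 for miR-136-5p, 4.02 for miR-434-3p and 1.01 for miR-431-5p, the smallest of the 8. Below the brain most neighbours in the order did not differ beyond their spread: of the 15 steps from 1 tissue to the next, miR-127-3p had 3 that exceeded the larger SD of the neighbours (brain to MAT, MAT to GAT, bone to spleen), and the other members had 1 to 3.

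Pattern across tissues was shared with the rest of the locus. Over the 16 tissue medians on the log2 scale, the miRNAs outside the group whose pattern was most like the mean of the members were miR-369-5p (Pearson r = 0.993), miR-382-5p (0.991), miR-341-3p (0.989), miR-376b-5p (0.988) and miR-495-3p (0.988), all of the Dlk1-Dio3 locus, and the 20 closest of the 1049 miRNAs compared were all in the locus. Outside the locus the closest were miR-218-2-3p (0.922, rank 56), miR-384-3p (0.915), miR-3099-3p (0.895), miR-344-3p (0.883) and miR-384-5p (0.882). These correlations run over tissues, share their libraries, and are set largely by the height of brain over the rest. In some tissues, the members also varied together from library to library, with a median pairwise r of 0.94 in skin, 0.90 in brain, 0.89 in SCAT and 0.84 in limb muscle, but 0.27 in small intestine and 0.18 in spleen. In brain the lowest pair had an r of -0.19. The 12 brain libraries that stood apart were lower in miR-127-3p (median 725 against 6193 rpmm) but not in miR-136-5p (4846 against 5010 rpmm). The part of these libraries in the brain r was not tested.

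The first comparison asked which members change with age in which tissue. A member was tested in a tissue where at least 10% of the libraries reached 1 rpmm, which left 106 of 128 pairs of member and tissue (miR-127-3p, miR-136-5p, miR-136-3p and miR-434-3p in 16 tissues, miR-434-5p in 15, miR-127-5p in 12, miR-431-5p in 9 and miR-433-3p in 6). A Spearman correlation (rho) with age below -0.5 or above 0.5 was the call. Of the 106 pairs, 27 fell with age and 0 rose, where 4.32% of all miRNA and tissue pairs fell and 3.75% rose. The falls lay in limb muscle (8 of 8 members, where 16.5% of all miRNAs fell), skin (7 of 8, 13.2%), GAT (6 of 8, 6.91%), SCAT (5 of 8, 11.2%) and heart (1 of 6, 2.44%). The median rho of the members was -0.75 in limb muscle, -0.58 in skin, -0.54 in SCAT and -0.53 in GAT, against -0.03 in brain and 0.30 in BAT. Over all tissues it was -0.29, beside 0.04 for all miRNAs.

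By the adjusted permutation p in place of rho, 45 of the 106 pairs passed, all with a negative rho, where 18.0% of all pairs passed in either direction. When the reads were scaled to the miRNA reads of the library, 37 pairs fell by the rho rule (6.58% of all), and when scaled by median ratios 41 fell (5.71%). Without the 1-month libraries 14 fell (2.26% of all), 7 of them in limb muscle, 3 in SCAT, 3 in skin, 1 in heart and 0 in GAT.

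Limb muscle showed the steepest fall. miR-127-3p had 1810, 1842, 2629 and 5643 rpmm at 1 month, and 501, 549.5, 647, 704, 836 and 1076 rpmm at 3 months. At 21 months the 5 libraries read 38.8, 45.7, 78.6, 94.1 and 196 rpmm, and the 3 males of 27 months 35.8, 54.2 and 63.5 rpmm. Each library of 1 and 3 months therefore lay above each library of 21, 24 and 27 months. The medians passed from 2236 at 1 month to 676 at 3 months and 93.5 at 6 months, so that most of the distance was covered before 6 months. At 9 months the 6 libraries spread from 75.8 to 2148 rpmm, and the 2 highest, 1193 and 2148 rpmm, were also the shallowest of this tissue, with 2.68 and 2.93 M reads, and the highest of their age in brain markers (1130 and 1597 rpmm, where the tissue ranged from 47.8 to 1597).

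The lower-abundance strands followed the same course. miR-434-3p had medians of 132 rpmm at 1 month, 58.1 at 3 months, 13.4 at 6 months, 8.09 at 9 months and 2.13 at 27 months. miR-136-3p ranged from 49.6 to 107 rpmm at 3 months, from 15.9 to 36.3 rpmm at 6 months and from 1.56 to 7.86 rpmm at 21 months. For both strands all 6-month libraries lay below all 3-month libraries. miR-136-5p was more scattered, with 465 to 764 rpmm at 3 months and 39.9, 51.5, 87.5, 120 and 670 rpmm at 21 months, the last from a library of fewer than 10 M reads. The 2 rarest, miR-431-5p and miR-433-3p, passed from 0.964 to 3.32 and 0.469 to 1.11 rpmm at 3 months to 0 to 0.972 and 0 to 0.521 rpmm at 21 months, where several values lie near or under 3 reads.

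Over the 47 limb muscle libraries, rho with age was -0.84 for miR-434-3p, -0.82 for miR-136-3p, -0.76 for miR-127-5p, -0.75 for miR-127-3p and miR-434-5p, -0.74 for miR-136-5p, -0.71 for miR-431-5p and -0.58 for miR-433-3p. The permutation p was 1e-05 for 7 members, the smallest that 100000 shuffles can give, and 4e-05 for miR-433-3p, or 7.9e-05 and 2.8e-04 after Benjamini-Hochberg adjustment over the miRNAs of the tissue. Pearson's r of the log2 level was between -0.82 for miR-434-3p and -0.59 for miR-433-3p, each with an adjusted permutation p of 7.7e-05. With the 2 libraries farthest from the median age left out, r remained between -0.82 and -0.60. Within sequencing plates rho was between -0.83 and -0.56, and within sets of 12 title numbers between -0.85 and -0.58.

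Other limb muscle RNAs moved with age as well, and their part in the result was not tested. The summed level of the 3 fibroblast markers (miR-199a-5p, miR-199a-3p and miR-214-3p) had a rho of -0.47, with a median of 3724 rpmm at 1 and 3 months and 2399 rpmm at 18 to 27 months. The 3 red blood cell markers had a rho of -0.38 (1222 and 784 rpmm) and the 5 striated muscle markers 0.31 (296776 and 388513 rpmm). The 4 brain markers had a rho of -0.26, with 308 and 219 rpmm. The largest of these shifts in the medians was below 2-fold, and such sums cannot show which cells carried the members.

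The study takes 3 months as its baseline and 21 months as old age. In limb muscle all 8 members were lower at 21 months (n = 5, of both sexes) than at 3 months (n = 6), where 17.4% of all miRNAs were lower, by limma on log2(rpmm + 1) with an adjusted p under 0.05. The scale understates the change of the rare members, so the ratio of the mean levels is given too. miR-136-3p dropped by a factor of 16.95 (mean 80.9 to 4.77 rpmm, log2 change -3.91, SE 0.47, adjusted p = 7.0e-09). miR-434-3p dropped by a factor of 11.8 (59.2 to 5.03 rpmm, log2 change -3.37, SE 0.39, adjusted p = 3.3e-09) and its partner strand miR-434-5p by 10.8 (log2 change -3.18, SE 0.43). miR-127-3p dropped by a factor of 7.93 (719 to 90.6 rpmm, log2 change -3.17, SE 0.62, 95% interval -4.42 to -1.92, adjusted p = 7.4e-05) and miR-127-5p by 7.02 (log2 change -2.29, SE 0.44). For these 5 strands no library of 21 months reached the lowest library of 3 months, which held for 16.7% of all miRNAs in this tissue.

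The remaining 3 members overlapped between the 2 ages. miR-431-5p dropped by a factor of 4.94 (log2 change -1.02, SE 0.24), miR-433-3p by 3.31 (log2 change -0.58, SE 0.18, adjusted p = 0.013) and miR-136-5p by 3.01 (log2 change -2.39, SE 0.69, adjusted p = 0.0087). Without the 21-month library of title number 28, miR-433-3p no longer passed (limma, adjusted p = 0.061). miR-136-5p did not pass in edgeR's test on the recovered reads or after median-ratio scaling. The median log2 change of all miRNAs in this tissue was -0.42 on the deposited scale, -0.63 scaled to miRNA reads and -0.02 by median ratios.

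Each later age shares the 3-month libraries with the others. Against them, 5, 6, 8, 8, 7, 8 and 8 of the 8 members were lower in limb muscle at 6, 9, 12, 15, 18, 21 and 27 months (limma, adjusted p under 0.05), where 9.34%, 13.4%, 11.4%, 22.2%, 11.2%, 17.4% and 12.5% of all miRNAs were. At 12 months, every library of every member lay below every 3-month library, which 12.8% of all miRNAs did. At 1 month, miR-127-5p was higher than at 3 months (21.0 to 57.4 against 7.28 to 13.1 rpmm, log2 change 1.76, SE 0.47, limma adjusted p = 0.019), where 3.66% of all miRNAs were higher. miR-127-3p (1.93, SE 0.66, adjusted p = 0.069) and miR-431-5p (0.81, SE 0.26, adjusted p = 0.054) did not pass. Over all tissues 2 of 91 pairs were higher at 1 month (0.866% of all pairs), the other being miR-136-3p in liver (log2 change 0.91, limma adjusted p = 0.014, 2.00% of liver miRNAs higher).

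Over all tissues with at least 3 libraries at both ages, 11 of 91 pairs of member and tissue differed between 21 and 3 months (limma, adjusted p under 0.05), 10 of them lower and 1 higher, where 1.62% of all pairs were lower and 2.25% higher. Apart from limb muscle these were miR-136-3p (log2 change -1.63, SE 0.43, adjusted p = 0.030) and miR-434-5p (-1.69, SE 0.46, adjusted p = 0.035) in SCAT, where 2.21% of miRNAs were lower, and miR-434-3p in small intestine (0.65, SE 0.22, adjusted p = 0.042), where 12.5% were higher. The small intestine call was lost with median-ratio scaling, a pseudocount of 0.1 rpmm, no filter, the plate or the set in the model, males alone, edgeR, and in 3 of 5 runs that left out 1 library of every group. Over all later ages, 84 of 744 comparisons passed, 82 lower and 2 higher, against 1.50% lower and 1.28% higher of all comparisons. Those outside limb muscle fell to skin (24 lower), MAT (6 lower), SCAT (2 lower), liver (miR-136-3p at 6 months, higher, as were 70 of 501 liver miRNAs) and small intestine (1 higher). Of the 6 in MAT, 3 were at 15 months (1.52% of MAT miRNAs lower) and 3 at 27 months (11.5%), the age at which each MAT library stood closer to another fat depot.

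The age slopes themselves differed between tissues. For the 4 members past the filter in all 16 tissues, an interaction of tissue and age was tested in limma, over 368 miRNAs. The tissues were dissected from the same mice and the labels do not tie a library to its mouse, so the fit treats libraries that share a mouse as independent. F was 9.72 for miR-127-3p, 13.3 for miR-136-3p, 10.96 for miR-136-5p and 14.1 for miR-434-3p, with adjusted p-values between 2.7e-29 and 1.5e-19, and 65.5% of all miRNAs passed this test too. In limb muscle the log2 level fell by 0.174 to 0.182 per month. This slope was steeper than that of heart, the other striated muscle, for all 4 members, by -0.134 (miR-127-3p, SE 0.0227) to -0.165 (miR-434-3p) per month, where 5.98% of all miRNAs had a lower slope in limb muscle. Against brain the difference was -0.164 to -0.184 per month, where 8.42% were lower.

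Skin showed the next largest fall, and there age and sex were both seen. miR-127-3p had 459 to 1678 rpmm at 1 month (n = 5), 122, 166, 538, 1021, 1307 and 1405 rpmm at 3 months, 58.7 to 164 rpmm at 15 months (n = 6) and 62.5, 62.7, 94.2 and 174 rpmm at 27 months. The 2 lowest libraries of 3 months were the females, and they overlapped the old libraries, whereas the 4 males did not. rho with age was -0.65 for miR-127-3p and miR-136-5p, -0.63 for miR-433-3p, -0.60 for miR-136-3p, -0.57 for miR-127-5p, -0.54 for miR-431-5p, -0.53 for miR-434-3p and -0.45 for miR-434-5p, which was not called. The adjusted permutation p of the 7 called members was between 0.00016 and 0.0012. Pearson's r over the 8 members was between -0.64 and -0.48, and between -0.64 and -0.44 once the 2 libraries most distant from the median age were left out. Within plates rho was between -0.56 and -0.36 and within sets between -0.59 and -0.32, weaker than over all libraries.

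Against 3 months, 2 members were lower in skin at 6 months (5.70% of all miRNAs), 0 at 9 and 12 months, 8 at 15 months (17.3%), 8 at 18 months (15.3%) and 6 at 27 months (9.01%), by limma at an adjusted p under 0.05. At 12 months all 8 were lower at an unadjusted p under 0.05, a count given without the share of all miRNAs. The log2 change at 18 months was -2.50 (SE 0.59, adjusted p = 0.0037) for miR-127-3p and -2.20 (SE 0.50) for miR-434-3p. At 21 and 24 months skin had 2 libraries each, so those ages were not tested.

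Male skin held more of every member than female skin. Over all tissues 9 of 106 pairs differed by sex, 8 higher and 1 lower in males, where 2.60% of all pairs were higher and 1.85% lower. In skin over 1 to 21 months and with age in the model, all 8 members were higher in males (28 libraries) than in females (13 libraries), where 16.0% of all miRNAs were higher and 12.7% lower in males. miR-127-3p ranged from 10.8 to 1678 rpmm in males (median 276) and from 40.5 to 539 rpmm in females (median 90.6), with a log2 difference of 1.49 (SE 0.28, limma adjusted p = 4.3e-05). miR-136-3p had medians of 23.6 rpmm (1.97 to 156) and 7.82 rpmm (1.39 to 39.6), a difference of 1.61 (SE 0.24, adjusted p = 1.2e-06). The groups overlapped over all ages, but at each of the 7 ages with both sexes the male median was above the female median for all 8 members.

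At 3 months, miR-434-3p had 4.58 and 5.09 rpmm in the 2 females and 24.5, 32.2, 40.6 and 42.6 rpmm in the 4 males. At 18 months, miR-127-3p had 40.5 and 44.8 rpmm in the 2 females and 118, 129, 138 and 155 rpmm in the 4 males. With 2 against 4 libraries such a separation was common in this tissue: at 3 months all 8 members, and 28.5% of all miRNAs, had every male above every female, and at 18 months 6 members and 38.6% of all miRNAs. The other members differed by 1.46 (miR-434-5p, SE 0.26), 1.21 (miR-434-3p, SE 0.24), 1.19 (miR-127-5p, SE 0.18), 1.16 (miR-136-5p, SE 0.24), 0.83 (miR-431-5p, SE 0.16) and 0.50 (miR-433-3p, SE 0.11) on the log2 scale. Elsewhere in the locus, 53 of the 55 miRNAs downstream of Mir136 and 8 of the 9 upstream of Mir431 were higher in male skin, against 17 of 471 miRNAs outside the locus.

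Marker sums also differed between male and female skin, and their part in the result was not tested. The 3 fibroblast markers had a median of 10016 rpmm (789 to 19610) in males and 7266 rpmm (2534 to 10189) in females, and the 3 epithelium markers 17699 rpmm (63.0 to 26215) and 25183 rpmm (18677 to 37572). The 3 vessel markers stood at 10220 and 14960 rpmm. A single male library of 21 months held 81424 rpmm of the liver marker miR-122-5p and was among those closest to another tissue. Without the libraries closest to another tissue all 8 members were still higher in male skin, and 6 of 8 were also higher in male SCAT, where 0 passed with all libraries. The 4 brain markers stood at 159 and 110 rpmm. In limb muscle, the other tissue with a call, miR-136-5p differed by sex and in the opposite direction (medians of 83 rpmm in males and 553 rpmm in females, log2 difference -1.29, limma adjusted p = 0.021), where 0.733% of all miRNAs were lower in males. That count of 1 member lower in male limb muscle became 5 with scaling to miRNA reads, 5 with median ratios, 5 without libraries of fewer than 10 M reads, 4 without the 1-month libraries and 0 with the sequencing plate in the model. The shares of all miRNAs under these alternative settings, in SCAT and in limb muscle, are not given.

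In fat the fall was smaller. miR-136-3p in SCAT had 41.7 and 64.2 rpmm at 1 month, 3.46, 25.4, 31.1 and 40.6 rpmm at 3 months and 1.60 to 7.47 rpmm at 21 months (n = 6). The 3-month library at 3.46 rpmm was closest to bone by its markers. Without it 8 of 8 members fell in SCAT, a count given without the share of all miRNAs. With all libraries rho was -0.66 for miR-136-3p, -0.64 for miR-136-5p, -0.59 for miR-127-3p, -0.56 for miR-127-5p and -0.52 for miR-434-5p, while miR-431-5p (-0.47), miR-433-3p (-0.44) and miR-434-3p (-0.43) were not called. For the 5 called members the adjusted permutation p was between 0.00028 and 0.0029, Pearson's r between -0.66 and -0.58 (-0.59 to -0.47 with 2 libraries left out by the same rule), and rho within plates between -0.60 and -0.44. In GAT miR-136-3p had 19.3, 27.0, 31.7, 35.4 and 50.6 rpmm at 1 month, 24.8, 25.5, 26.7, 28.8 and 39.5 rpmm at 3 months and 8.18, 9.51, 12.2 and 12.7 rpmm at 21 months. rho in GAT was -0.63 for miR-136-3p, -0.62 for miR-127-5p, -0.58 for miR-136-5p, -0.55 for miR-434-3p, -0.52 for miR-434-5p and -0.51 for miR-127-3p. The call of miR-127-3p in GAT was lost when any of several single libraries was left out. Its Pearson r was -0.42 with an adjusted permutation p of 0.0532. Over the 6 called members of GAT the adjusted permutation p of rho was between 0.00072 and 0.012, r after leaving out 2 by that rule between -0.57 and -0.39, and rho within plates between -0.61 and -0.47.

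Marker sums in fat moved with age in part, and their part was not tested. In SCAT the fibroblast markers had a rho of -0.32, the white blood cell markers -0.42 and the vessel markers 0.29. In GAT the white blood cell markers had a rho of 0.46 and the fibroblast markers 0.01. In heart only miR-127-3p fell (rho -0.63, adjusted permutation p = 0.00041), from a median of 104 rpmm at 1 month to 53.8 rpmm at 21 months, less than 2-fold. Its Pearson r was -0.60, and within plates rho was -0.66. In brain, where the members were highest, rho was between -0.20 and 0.16, and between -0.20 and 0.20 with the set means removed, which takes out the 12 libraries that stood apart.

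Other miRNAs of the locus fell with age too. The study itself lists miR-541-5p, miR-300-3p and miR-487b-3p, all downstream of Mir136, as falling with age in 5 tissues each. Of all pairs of miRNA and tissue, 175 of 624 fell with age among the miRNAs downstream of Mir136 (28.04%), 30 of 89 upstream of Mir431 (33.7%) and 148 of 8024 outside the locus (1.84%). Of the miRNAs that fell, the locus held 69 of 90 in limb muscle, 67 of 72 in skin, 41 of 42 in GAT, 41 of 66 in SCAT, 8 of 13 in heart and 5 of 8 in bone, but 0 of 54 in spleen and 0 of 14 in lung. No member fell in bone, nor in liver, MAT and pancreas, where 1 miRNA of the locus fell in each. miR-433-5p, the other arm of the miR-433 hairpin, had a rho of -0.61 in limb muscle and -0.51 in skin. miR-431-3p, the other arm of miR-431, was above the filter in brain alone (rho -0.18).

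The 2 arms of a hairpin come from 1 precursor, so their ratio was compared within libraries. The ratio of the summed levels does not depend on a pseudocount, whereas the log2 ratio tested against age carries 1 rpmm in each arm. For miR-127 the 3p strand was 50.6 to 82.9 times as abundant as the 5p strand over 12 tissues. For miR-136 the 3p strand was at 0.0604 to 0.208 of the 5p strand over 16 tissues, so the 5p strand dominates there. For miR-434 both strands were of like abundance, with ratios of 0.856 to 3.30 over 15 tissues, highest in brain. A ratio was called here by an adjusted permutation p of rho under 0.05, and not by the threshold on rho used above. Of 43 ratios, 5 fell with age, those of miR-127 in heart, limb muscle, SCAT and skin and that of miR-434 in limb muscle. Their rho ran from -0.63 (miR-127 in skin) to -0.42 (miR-127 in SCAT). With a pseudocount of 0.1 rpmm in place of 1, 0 of the 43 passed, and rho of the miR-127 ratio in limb muscle moved from -0.52 to 0.0239.

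The parabiosis data asked whether the blood of an aged or young partner shifts a level. A member was tested where it passed the same filter, which left 6 members in limb muscle, 7 in GAT, 7 in heart, 5 in kidney, 2 in liver and all 8 in MAT, 35 pairs in all. The age difference was tested within isochronic mice (IA against IY). Aged and young heterochronic partners were also compared (HA against HY), where age goes together with the transgenic strain. The partner's effect was tested in aged mice (HA against IA, called REJ by the study) and in young mice (HY against IY, called ACC). These 4 comparisons share their groups.

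Limb muscle again separated young from aged mice. miR-136-3p ran from 15.6 through a median of 24.5 to 42.8 rpmm in IY (n = 8), and from 2.08 through 4.03 to 5.597 rpmm in IA (n = 8). In HY (n = 7) it ran from 22.2 through 25.4 to 27.8 rpmm, and in HA (n = 7) from 2.76 through 3.91 to 8.10 rpmm. Both young groups therefore lay above both aged groups with no overlap. miR-434-3p had medians of 17.2 rpmm in IY (8.94 to 28), 12.9 in HY (10.003 to 16.9), 1.78 in HA (1.22 to 4.63) and 2.09 in IA (1.75 to 3.08). miR-127-3p had medians of 189 rpmm in IY (93.5 to 494), 119 in HY (90.8 to 156), 44 in HA (28.02 to 106) and 41.8 in IA (33.3 to 46.96). For miR-127-3p the highest HA mouse reached into the range of HY.

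All 6 members tested were lower in IA than in IY limb muscle, where 12.7% of all miRNAs were lower, and none of the 6 overlapped between the groups, which held for 8.08% of all miRNAs. The ratio of the means was 7.76 for miR-434-3p (log2 change -2.41, SE 0.20, limma adjusted p = 2.1e-11), 7.003 for miR-136-3p (-2.48, SE 0.19, adjusted p = 1.3e-11), 5.47 for miR-127-3p (-2.22, SE 0.27, adjusted p = 4.8e-08), 5.02 for miR-127-5p (-1.15), 4.82 for miR-136-5p (-2.19) and 4.62 for miR-434-5p (-1.69). Between the heterochronic partners all 6 were again lower in HA than in HY, where 9.29% of all miRNAs were lower. The ratios were 5.95 for miR-434-3p (log2 change -2.20), 5.68 for miR-136-3p (-2.32, adjusted p = 4.2e-10), 3.51 for miR-434-5p (-1.47), 2.92 for miR-127-5p (-0.91), 2.70 for miR-136-5p (-1.51) and 2.05 for miR-127-3p (-1.15, SE 0.29, adjusted p = 0.0044). Of these, miR-136-3p, miR-136-5p, miR-434-3p and miR-434-5p did not overlap between the partners' groups, which held for 4.65% of all miRNAs. The fibroblast markers stood at medians of 3302 rpmm in IY, 4019 in HY, 2583 in HA and 2654 in IA, and the red blood cell markers at 873, 958, 452 and 706 rpmm, and their part was not tested.

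Over the 6 tissues, 13 of 35 pairs were lower in IA than in IY, where 4.70% of all pairs were lower and 3.43% higher. Besides limb muscle, they were 6 of 7 members in GAT (5.64% of all miRNAs lower) and miR-136-3p in heart (log2 change -0.53, 8.91%). In GAT the log2 change was -1.18 for miR-136-3p, -1.11 for miR-127-3p, -1.05 for miR-136-5p, -0.95 for miR-434-5p, -0.75 for miR-127-5p and -0.73 for miR-434-3p. In HA against HY, 10 of 35 pairs were lower (4.30% of all pairs). In GAT 0 of 7 members passed there, while in heart miR-434-3p (-0.81), miR-136-3p (-0.64), miR-136-5p (-0.53) and miR-434-5p (-0.50) did, where 8.53% of miRNAs were lower.

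No member was called for the partner's effect in aged mice: 0 of 35 pairs passed in HA against IA by limma at an adjusted p under 0.05, where 0.747% of all pairs were higher and 0.218% lower. By edgeR's test on the recovered reads 3 passed, 2 higher and 1 lower, and by limma at an unadjusted p under 0.05, 10 were higher and 3 lower. The share of all miRNAs under these rules is not given, so these counts are not read as a result. With a ratio of the means past 3/2 and an unadjusted p under 0.05 as the rule, 11 passed, 9 higher and 2 lower, where 8.94% of all pairs were higher and 2.52% lower. In limb muscle the log2 difference was 0.36 for miR-127-3p (95% interval -0.21 to 0.92), 0.18 for miR-136-3p (-0.22 to 0.59), 0.21 for miR-127-5p (-0.15 to 0.57), -0.02 for miR-434-3p (-0.43 to 0.40) and 0.08 for miR-434-5p (-0.31 to 0.46). These intervals do not reach the size of the difference between IA and IY in the same tissue. The difference of miR-136-5p was 0.51 (0.083 to 0.95, limma adjusted p = 0.59).

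In the other tissues the smallest adjusted p-values of HA against IA were in heart and GAT, and the largest differences in MAT. miR-136-3p in GAT was 0.75 higher (SE 0.25, limma adjusted p = 0.070). With the joined pair as a random block its limma adjusted p was 0.047, the single call of that fit. The correlation of joined partners was estimated at -0.162 in GAT, and how far the call depends on it was not tested. miR-434-3p in heart was 0.69 lower, as a log2 difference of -0.69 (SE 0.19, limma adjusted p = 0.063). In MAT, 5 members had differences of 0.78 to 1.15 with adjusted p-values of 0.19 to 0.22, beside a median difference of 0.38 over all miRNAs of that tissue.

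In young mice the partner's effect was likewise not called. In HY against IY 0 of 35 pairs passed by limma at an adjusted p under 0.05, as did 0% of all miRNAs in either direction, and edgeR called 0. At an unadjusted p under 0.05, 3 members were higher in heart, 1 was lower in limb muscle and 2 were lower in liver. The share of all miRNAs at that threshold is not given, so these counts are not read as a result. The limb muscle member was miR-127-3p, with a log2 difference of -0.71 (95% interval -1.28 to -0.15, limma adjusted p = 0.75), while the other 5 lay between -0.23 and 0.03. In liver, miR-127-3p had a difference of -0.92 (SE 0.26, adjusted p = 0.29). The IY group joins mice of 3 and 4.5 months. Against those of 3 months alone miR-127-3p in limb muscle passed with a difference of -1.27. The HY mice were 4 months old, so this subset also differs from them in age. The IY mice of 4.5 months had 93.5 to 198 rpmm of miR-127-3p, which overlapped the 90.8 to 156 rpmm of HY. The share of all miRNAs passing against the IY mice of 3 months is not given, so this call is not read as a result.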

How the data were processed

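Small RNA libraries (MGIEasy kit, BGISEQ500RS, single end) were mapped by the authors with miRMaster and Bowtie, allowing 1 mismatch, to miRBase and mm10, and libraries under 2 M (1000000) aligned reads were dropped. The deposited values are a normalised signal, rpmm, in which reads that match several RNAs count for each. Groups came from the sample labels, and 768 of 771 aging columns (3 had names that went against the annotation) and 176 parabiosis columns were used. Whole reads were recovered from the smallest step of each library: 100% of member values and 98.97% (aging) and 98.84% (parabiosis) of miRNA values lay within 0.05 of a whole number. The main tests were Spearman's rho with 100000 shuffles, and limma 3.58.1 (R 4.3.3) on log2(rpmm + 1) over all miRNAs past the filter of a tissue, with Benjamini-Hochberg adjustment. edgeR 4.0.16 on the recovered reads was an alternative. The tests were tested on simulated data. Labels do not state that replicates were processed apart, so p-values measure the spread between these libraries. Members, lists and tests were chosen with earlier results of these data known. The members, the other arms, tissues with 4 or more called members, and the miRNAs most alike across tissues are named. Other values were computed with python 3.11.15, numpy 2.4.6, pandas 2.3.3 and scipy 1.17.1.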

Additional observations from a re-analysis of the deposited data

Results flagged for a closer look

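Of 160 groups of 4 to 10 libraries checked in limb muscle and skin, 8 held a library far from the others of its group, where chance gives about 1 in 20. In the aging limb muscle these were miR-431-5p at 9 months (lowest 0 rpmm, the library of 2.68 M reads), miR-433-3p at 6 months (highest 1.59 rpmm) and miR-127-5p at 15 months (highest 10.8 rpmm). In the aging skin they were miR-431-5p at 18 months (lowest 0.0338 rpmm) and miR-434-3p at 27 months (highest 10.4 rpmm). In parabiosis limb muscle they were miR-431-5p in HA (highest 1.16 rpmm) and in HY (lowest 0.0424 rpmm) and miR-433-3p in HA (highest 0.372 rpmm). All but 2 of these involve strands within reach of the detection limit.

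The age slope differed between tissues for the 4 members tested (limma, interaction of tissue and age): F was 9.72 for miR-127-3p, 13.3 for miR-136-3p, 10.96 for miR-136-5p and 14.1 for miR-434-3p. The slope of limb muscle minus that of heart was -0.134, -0.145, -0.154 and -0.165 log2 units per month for the same members in that order, and minus that of brain -0.184, -0.164, -0.172 and -0.179.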

How the results depend on the processing

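Direction held for the age falls in limb muscle, for the sex difference in skin (8 of 8 members, or 5 of 5 with a mean of at least 10 rpmm) and for the 4 slope differences under each alternative run. Counts of calls moved more, and their causes were not tested. The shares of all miRNAs under each of these runs are not given here, so the counts are not set against them. Of the 27 age correlations, 41 were called after median-ratio scaling, 14 without the 1-month libraries, 45 by adjusted p, and 25 to 30 with single libraries left out. Of the 11 calls at 21 against 3 months, there were 18 by median-ratio scaling, 6 with a mean of at least 10 rpmm, 17 without libraries closest to another tissue, 28 with a ratio past 3/2 and an unadjusted p under 0.05, and 7 to 16 when 1 library of every group was left out. Of the 2 calls at 1 against 3 months, there were 8 scaled to miRNA reads, 7 by median ratios, 1 with a pseudocount of 0.1 rpmm, 0 at a mean of at least 10 rpmm, 4 without a filter, 1 with the set in the model, 9 in males alone, 1 by edgeR and 0 to 8 leaving out libraries. The 84 calls at later ages became 51 at a mean of at least 10 rpmm and 54 to 106 leaving out libraries. The 9 sex calls became 17, 18, 15 and 15 with miRNA-read scaling, median-ratio scaling, libraries closest to another tissue left out, and plate in the model. The 5 arm ratio calls became 0 with a pseudocount of 0.1 rpmm, 2 without 1-month libraries and 3 in males alone, and the miR-127 ratio in limb muscle turned to 0.0239.

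REJ calls rose from 0 to 2 (miRNA-read scaling), 1 (median ratios), 3 (edgeR) and 11 (ratio past 3/2), and ACC calls from 0 to 1 (IY mice of 3 months) and 4 (ratio past 3/2). With a mean of at least 10 rpmm, 6 calls were left for IA against IY and 4 for HA against HY. The log2 difference of miR-434-3p in limb muscle for REJ turned to 0.0413 (miRNA reads) and 0.0587 (edgeR). For ACC in limb muscle miR-127-5p turned to 0.0463 (miRNA reads), 0.0530 (median ratios), 0.00929 (pseudocount 0.1) and 0.36 (IY mice of 4.5 months), miR-136-3p to -0.0540 (edgeR) and -0.42 (IY mice of 3 months), and against IY mice of 4.5 months miR-136-5p to 0.22, miR-434-3p to 0.24 and miR-434-5p to 0.32. None of these small differences had been called.

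Heterochronic partners were sutured to each other, and the pair number marks this. Of 39 pairs of libraries, 25 had a correlation of their deviations over 0.1 (median 0.239, -0.686 to 0.865). With the pair as a block HA against HY had 10 calls, as without it. 2 alternatives were chosen after seeing the data. With the pair as a random block over all 4 groups there were 1 (REJ), 0 (ACC), 17 (IA against IY) and 11 (HA against HY) calls. The correlation of partners, estimated per tissue, was negative in GAT (-0.162) and MAT (-0.284). In the other tissues it lay between 0.0796 (heart) and 0.235 (liver). Without libraries of fewer than 10 M reads there were 18 calls at 21 against 3 months, 4 at 1 against 3 months, 132 at later ages and 20 by sex. Depth limits miR-431-5p and miR-433-3p outside brain, and in fat for part of the libraries. In BAT, GAT and SCAT the lowest library held 0% of the signal of the members as miR-433-3p.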

Other observations

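Limb muscle libraries of low depth carried more miR-136-5p relative to its partner strand. The 9 libraries under 10 M reads (1 M being 1000000; 2.68 to 9.10 M) had a log2 ratio of miR-136-5p to miR-136-3p with a median of 5.59 (3.45 to 8.28), and the other 38 libraries (11.5 to 111 M) a median of 3.11 (1.36 to 4.35). The high miR-136-5p values at 9 months (1543 and 1162 rpmm) and at 21 months (670 rpmm) come from libraries of this kind. These values are given as measured, and no cause was tested.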
